A study of Homo sapiens with 6 samples.

Results

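The 9 genes described here encode the enzymes of de novo purine synthesis up to IMP (PPAT, GART, PFAS, PAICS, ADSL and ATIC) and of the branch that turns IMP into GMP (IMPDH1, IMPDH2 and GMPS). They were chosen by symbol, by their role in the pathway, and all 9 were found among the 20263 genes of the count table. All 9 also passed the filter on low counts, as did 12690 genes in all. The cells were MV4-11, an established human line of acute myeloid leukemia with a KMT2A fusion and an internal tandem duplication in FLT3, a receptor kinase. They were cultured for 24 h with venetoclax plus cyclosporine A (VEN+CSA), with venetoclax alone at 100 nM (VEN) or with cyclosporine A alone at 2.5 µM (CSA), and the doses in the combination are not given separately. The labels' growth protocol describes this culture, while the treatment label mentions gavage, which is oral dosing of animals, and the labels leave the conflict unresolved. Venetoclax inhibits the survival protein BCL2, and cyclosporine A binds cyclophilins and inhibits calcineurin. There were 2 RNA-seq libraries a group, 6 in all, from this single line, and untreated cells were not analysed here. The labels do not state whether replicates were grown separately, so the p-values reflect variation among these libraries, which may be technical.

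The de novo pathway builds the purine ring step by step on phosphoribosyl pyrophosphate (PRPP), using glutamine, glycine, aspartate, carbon dioxide and one-carbon units carried by folate. IMP, its product, is the branch point: IMPDH and GMPS lead to guanine nucleotides, and adenylosuccinate synthetase with ADSL leads to AMP. Dividing leukemia cells depend on this supply for DNA and RNA, and thiopurines and mycophenolate are drugs that act on purine metabolism.

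On GRCh38 (GENCODE release 29) the genes lie at chr4:56393362-56435615 (PPAT, minus strand), chr21:33503931-33543491 (GART, minus), chr17:8247618-8270491 (PFAS, plus), chr4:56435741-56464579 (PAICS, plus) and chr22:40346500-40390463 (ADSL, plus). ATIC lies at chr2:215311817-215349773 (plus), IMPDH1 at chr7:128392277-128410252 (minus), IMPDH2 at chr3:49024325-49029408 (minus) and GMPS at chr3:155870536-155944026 (plus). PPAT and PAICS lie head to head on chromosome 4 and are transcribed in opposite directions. The window that their RefSeq promoters share (GRCh38.p14, chr4:56435566-56435801, plus strand, 236 bases) is printed because both genes start inside it and their levels parted in 1 library, as described further on. RefSeq lists 3 PAICS promoters, and the one used here is that with its start site nearest to PPAT, 137 bases away. The others start outside the window and hold no CACGTG. The ATIC promoter (GRCh38.p14, chr2:215311809-215312108, plus strand) is printed because it holds 2 matches to CACGTG, the E-box that MYC and related factors can bind. Capitals mark CACGTG.
PPAT and PAICS window: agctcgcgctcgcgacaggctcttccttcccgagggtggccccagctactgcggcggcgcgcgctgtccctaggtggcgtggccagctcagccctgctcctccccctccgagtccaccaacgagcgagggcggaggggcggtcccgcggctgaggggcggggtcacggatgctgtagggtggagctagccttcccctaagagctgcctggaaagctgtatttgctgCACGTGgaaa
ATIC promoter: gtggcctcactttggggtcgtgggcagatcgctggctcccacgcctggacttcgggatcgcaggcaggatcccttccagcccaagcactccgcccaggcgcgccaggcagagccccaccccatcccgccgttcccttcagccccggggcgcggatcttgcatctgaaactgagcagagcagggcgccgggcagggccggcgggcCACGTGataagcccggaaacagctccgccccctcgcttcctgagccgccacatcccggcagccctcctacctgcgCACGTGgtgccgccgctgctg
Promoters of 250 bases before to 50 after the start were found for 7 of the 9 genes, and ADSL and IMPDH2 have no entry in the table used. CACGTG was present in a promoter of 3 of the 7 genes (PPAT, PAICS and ATIC), and 8.77% of all genes in the table have it in at least 1 promoter. For PPAT and PAICS this is the same single site, which lies in their shared window and is counted for both genes. It begins 40 bases after the PAICS start nearest to PPAT. In the ATIC promoter the matches begin 46 bases before and 29 bases after the start. TGATGNAA, the core of the element bound by ATF4 and C/EBP factors, was searched on both strands and is in none of the 7, against 4.46% of all genes. A match is a description of the letters only.

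Total counts were 26567900 to 30738957 a library, and each of the 9 genes had between 1306 and 16107 counts in every library. VEN replicate 2 stood apart: 41.5% of its counts came from mitochondrially encoded genes, against 7.41% to 15.2% in the other 5 libraries. Its scaling factor by the trimmed mean of M-values (TMM), which aligns the bulk of genes between libraries, was 0.657, against at least 1.02 in each of the others, so it had less depth for the bulk of genes. The log2 differences between replicates had an SD of 0.61 in VEN+CSA, 0.94 in VEN and 0.55 in CSA over 12677 nuclear genes. The 9 myeloid and KMT2A-fusion leukemia markers summed to 1520 to 1724 CPM. CPM are counts scaled to a common library total after TMM adjustment, the scale of all levels here. FLT3 and LYZ were the highest of these markers, at means of 875 and 428 CPM. CD33, HOXA9, MEIS1 and CSF1R averaged between 46.4 and 115 CPM. MPO and ITGAM averaged only 7.47 and 5.14 CPM, and CD14 reached at most 0.407 CPM. T cell markers summed to at most 0.397 CPM and erythroid markers to at most 0.169 CPM, with 4 of 5 genes at 0 in each list. B cell markers summed to 3.08 to 5.16 CPM, and epithelial and fibroblast markers to 0.424 to 1.5 CPM. In these bulk samples fewer cells and less RNA per cell cannot be told apart.

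PPAT, the amidotransferase that makes the committed step from PRPP, was at 58.8 and 47.5 CPM in VEN+CSA, 56.4 and 70.6 CPM in VEN, and 56.5 and 50.8 CPM in CSA. Its VEN+CSA libraries held values on both sides of VEN replicate 1, and VEN replicate 2 was the highest of the 6. GART, an enzyme with 3 activities that also takes a formyl unit from folate, was at 196 and 198 CPM in VEN+CSA, 205 and 201 CPM in VEN, and 198 and 210.2 CPM in CSA. It was the steadiest of the 9, with a highest level only 1.07 times its lowest. PFAS, which adds a nitrogen from glutamine, was at 131 and 108 CPM in VEN+CSA, 148 and 73.3 CPM in VEN, and 153 and 140.0 CPM in CSA. Both CSA libraries were above both VEN+CSA libraries, and the VEN replicates lay on either side of all the others but CSA replicate 1.

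PAICS, which carries out 2 later reactions of the pathway, was at 245 and 229.8 CPM in VEN+CSA, 273 and 854 CPM in VEN, and 267 and 244 CPM in CSA. The 5 libraries other than VEN replicate 2 kept within 1.19 times of each other. ADSL, the lyase that acts once before IMP and again in AMP synthesis, was at 66.9 and 73.7 CPM in VEN+CSA, 78.5 and 71.8 CPM in VEN, and 75.5 and 74.2 CPM in CSA. Both VEN+CSA values were below both CSA values. ATIC, which takes the other formyl unit from folate and closes the ring to IMP, was at 151 and 133 CPM in VEN+CSA, 144.5 and 119.8 CPM in VEN, and 152 and 149.7 CPM in CSA. Its groups overlapped except that both VEN values were below both CSA values.

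IMPDH1 and IMPDH2 are the isoenzymes of IMP dehydrogenase, the rate-limiting step towards GMP, and IMPDH2 is known as the form raised in proliferating cells. IMPDH1 was at 115 and 96.6 CPM in VEN+CSA, 124 and 86.0 CPM in VEN, and 133 and 113 CPM in CSA. IMPDH2 was at 389 and 374 CPM in VEN+CSA, 457 and 349 CPM in VEN, and 483 and 475 CPM in CSA. The CSA libraries were the 2 highest for IMPDH2, and its VEN+CSA values lay between those of VEN. GMPS, which makes GMP from the product of IMPDH, was at 217 and 227 CPM in VEN+CSA, 235 and 287 CPM in VEN, and 209.5 and 229.9 CPM in CSA, so that both VEN values were above all the others.

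**Figure D1:**
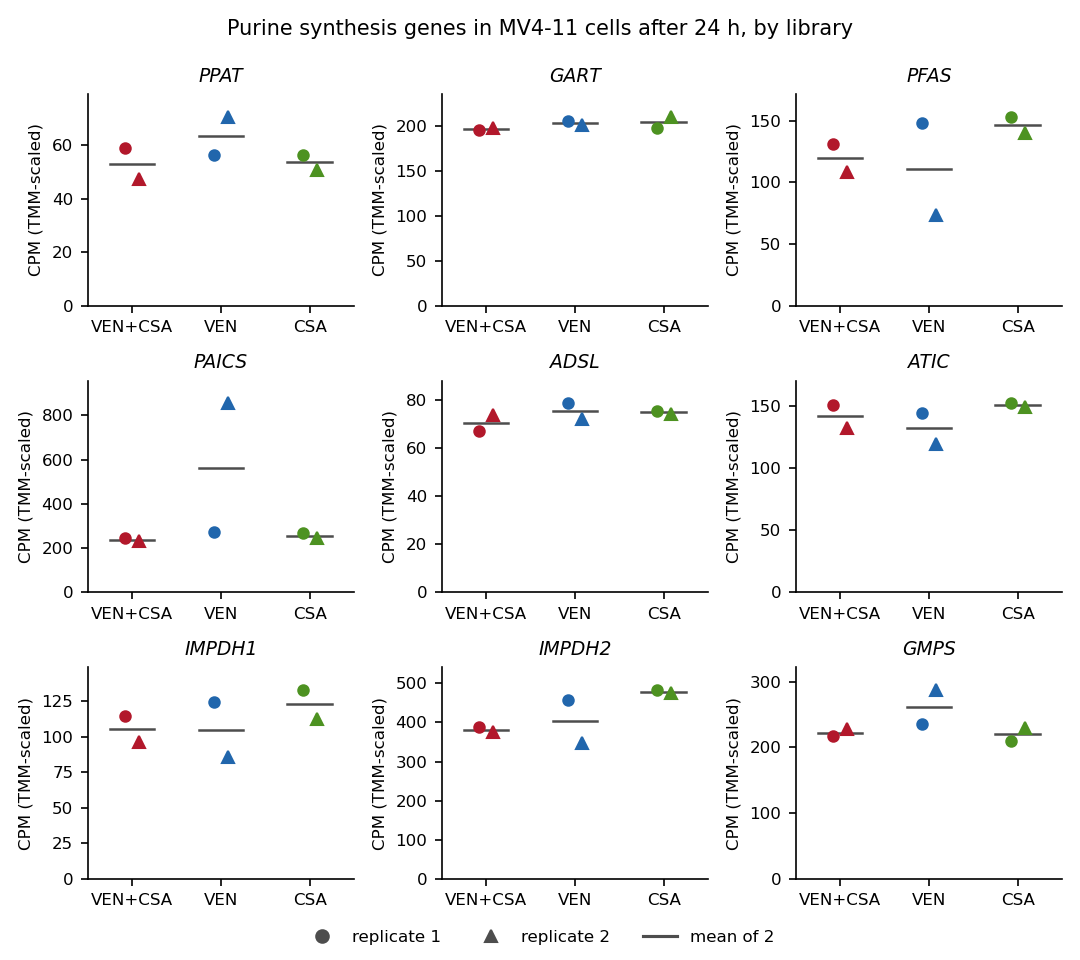
TMM-scaled CPM of the 9 purine synthesis genes (vertical axes from 0, a separate scale for each gene) in VEN+CSA, VEN and CSA; circles are replicate 1, triangles replicate 2 and lines the mean of 2 libraries. PAICS in VEN replicate 2 (854 CPM) stands far above its other libraries, and GART lies between 196 and 210.2 CPM throughout.

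Levels were divided by the length of a gene's exons, merged over all annotated transcripts, so the order depends on the annotation. On this scale IMPDH2 was the most abundant of the 9, at 126 to 174 CPM per kb. No other gene reached that range, the nearest being PAICS at 30.6 to 114 CPM per kb (up to 36.3 without VEN replicate 2). PAICS, ATIC (30.5 to 38.8), IMPDH1 (23.5 to 36.3), GMPS (23.6 to 32.3) and GART (25.2 to 27.1) followed in this order of mean CPM per kb, and the ranges of neighbours overlapped. PAICS was above ATIC in VEN replicate 2 only, and ATIC was the higher of the pair in the other 5 libraries. PFAS (11.3 to 23.7) lay below GART in every library, and PPAT (8.73 to 13.0) and ADSL (9.40 to 11.0) were the lowest and overlapped each other. The ratio of IMPDH2 counts to IMPDH1 counts was 3.40 and 3.88 in VEN+CSA, 3.68 and 4.05 in VEN, and 3.63 and 4.22 in CSA, so its groups overlapped. Reads from near-identical copies could be split or assigned to the genes, which was not tested: 7 pseudogenes are named after PAICS, 7 after IMPDH1, 2 after PPAT and 1 after GMPS, none of them in the count table. GART shares 275 exon bases with SON on the opposite strand, and the strand setting of the counting was not stated in the sources at hand. ADSL shares 1344 exon bases with AL022238.4 on its own strand, a gene that was counted at 677 and 451 in VEN+CSA, 609 and 84 in VEN, and 383 and 224 in CSA.

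VEN+CSA was set against VEN to read what cyclosporine A adds to venetoclax. This reading holds only if the combination used the same venetoclax dose, which is not given. None of the 9 genes was called, and none of all 12690 genes was, so 0% of genes were called by edgeR's quasi-likelihood test at adjusted p under 0.05. At an unadjusted p under 0.05 there were 1372 genes (10.8%), of which 1 was of the 9, and DESeq2 called 311 genes and limma-voom 0, none of them among the 9. The log2 fold changes of the 9 had a median of −0.08, beside −0.01 over all genes tested, with 3 above 0 and 6 below; scaled by library size alone the median was 0.16, with 8 above 0, and that of all genes 0.26. In 3 of the 9, GART, PAICS and GMPS, both VEN+CSA libraries were below both VEN libraries, an order that 18.9% of all genes showed, and in 0 of the 9 they were above, against 19.2% of all genes. PAICS had the lowest value, at −1.25 (SE 0.50, 95% interval −2.49 to −0.0052, edgeR adjusted p = 0.459). Without VEN replicate 2 its value was −0.20 (SE 0.11, adjusted p = 0.456), and without VEN replicate 1 it was −1.85 (adjusted p = 0.0121), in a fit that called 26.4% of all genes. The other 8 genes lay between −0.26 (PPAT) and 0.11 (PFAS), and their intervals held no fold below 0.595 or above 1.93.

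Without VEN replicate 2 all 9 genes had a log2 fold change below 0 against the remaining VEN library. The values lay between −0.30 (PFAS) and −0.02 (ATIC), with a median of −0.16, beside 0.0069 over all genes tested. All 9 genes share that 1 VEN library, so they are not separate observations. None was called in that fit, which called 49 genes (0.379%). IMPDH2 had the smallest adjusted p, 0.308 by edgeR, with a log2 fold change of −0.26 (SE 0.10). For PFAS the value turned from 0.11 with all 6 libraries (SE 0.34) to −0.30, and without VEN replicate 1 it was 0.71. ATIC and IMPDH1 also turned from above 0 to below it without VEN replicate 2, and IMPDH2 turned to 0.13 without VEN replicate 1.

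VEN+CSA against CSA, which uses the same VEN+CSA libraries, was read for what venetoclax adds to cyclosporine A. That reading holds only if the cyclosporine A dose was the same, which is not given. EdgeR again called 0 of 12690 genes (0%), with 462 at an unadjusted p under 0.05 (3.64%), none of them among the 9. DESeq2 called 60 genes and limma-voom 1, none among the 9. The median log2 fold change of the 9 was −0.09, beside −0.00 over all genes, with 8 below 0. In 4 of the 9, namely GART, PFAS, ADSL and IMPDH2, both VEN+CSA libraries were below both CSA libraries, and 23.7% of all genes showed that order. None of the 9 had both VEN+CSA libraries above both CSA libraries, against 23.5% of all genes. IMPDH2 averaged 382 CPM in VEN+CSA and 479 CPM in CSA, a log2 fold change of −0.33 (SE 0.18, 95% interval −0.76 to 0.11, edgeR adjusted p = 1.00). PFAS was at −0.29 (SE 0.34) and IMPDH1 at −0.22 (SE 0.23), while GMPS, at 0.01 (SE 0.17), and PPAT, at −0.01 (SE 0.20), were closest to 0. Without VEN replicate 2, which belongs to neither group, IMPDH2 was at −0.33 with a smaller SE of 0.08 (adjusted p = 0.301). That fit called 24 genes, or 0.185%.

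The single agents were set against each other as VEN against CSA, from the same 4 single-agent libraries. EdgeR called 0 genes (0%), with 609 at an unadjusted p under 0.05 (4.8%) and none of them among the 9, and DESeq2 called 63 and limma-voom 0, none among the 9. PAICS averaged 564 CPM in VEN (SD 411, n = 2) and 256 CPM in CSA (SD 15.7, n = 2), a log2 fold change of 1.14 (SE 0.50, 95% interval −0.10 to 2.38, edgeR adjusted p = 0.633). PFAS, at −0.41 (SE 0.34), was the lowest, and the median of the 9 was −0.01, beside −0.00 over all genes. Both VEN values were above both CSA values for PAICS and GMPS, and below them for ATIC and IMPDH2, an order that 20.8% of all genes showed upwards and 19.9% downwards. Without VEN replicate 2 the 9 values drew in to between −0.07 and 0.09. Without VEN replicate 1 edgeR called PAICS (1.74, adjusted p = 0.0155), PFAS (−1.001, adjusted p = 0.0177) and IMPDH2 (−0.46, adjusted p = 0.0277), in a fit that called 33.8% of all genes.

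**Figure D2:**
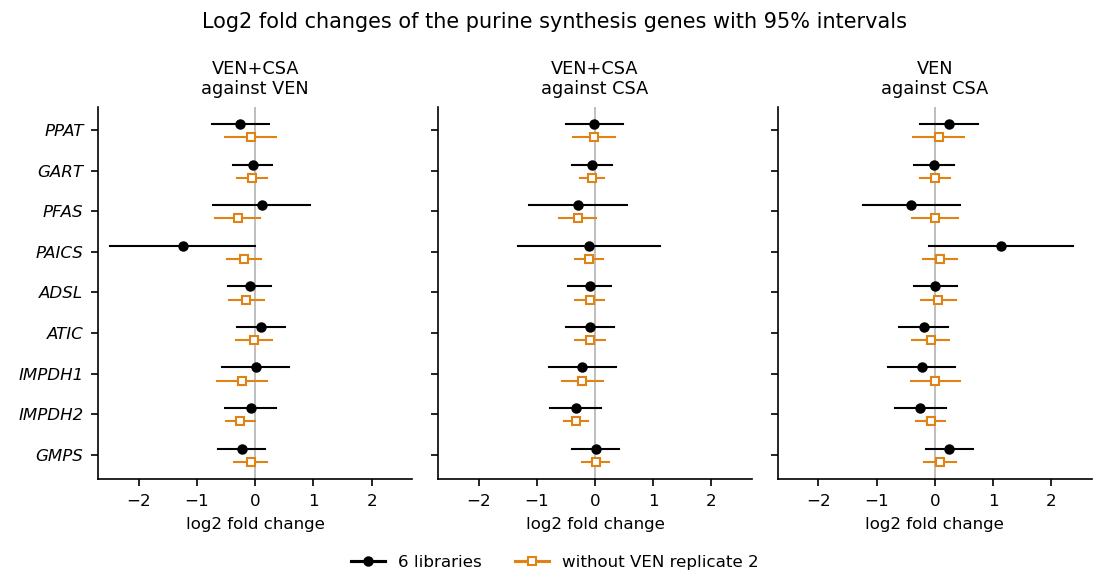
Log2 fold changes of the 9 genes (horizontal axis) in the 3 comparisons, with 95% intervals as lines; filled circles use all 6 libraries, and open squares leave out VEN replicate 2. PAICS moves from −1.25 to −0.20 in VEN+CSA against VEN when that library is left out. With all 6 libraries the other genes lie between −0.41 (PFAS) and 0.25 (GMPS), both in VEN against CSA. The PFAS interval there runs from −1.24 to 0.43.

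VEN replicate 2 was the highest library for 3 of the 9 genes (PPAT, PAICS and GMPS) and the lowest for 4 (PFAS, ATIC, IMPDH1 and IMPDH2). PAICS was 1.65 higher on the log2 scale in VEN replicate 2 than in its replicate, and 2.04% of nuclear genes differed upwards by more. PFAS was lower by −1.01 on that scale, and 9.28% of nuclear genes lay further down. Both shares are over all tested nuclear genes, which were not matched to PAICS or PFAS for level. In VEN+CSA and CSA the differences between replicates ran from −0.31 (PPAT, VEN+CSA) to 0.14 (ADSL, VEN+CSA). The PPAT and PAICS pair, which starts in the window printed above, kept a ratio of PAICS counts to PPAT counts of 4.17 and 4.84 in VEN+CSA, 4.84 and 12.1 in VEN, and 4.72 and 4.81 in CSA. The ratio was thus between 4.17 and 4.84 in 5 libraries and higher in VEN replicate 2 only. The part of that library's mitochondrial share in these values was not tested.

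**Figure D3:**
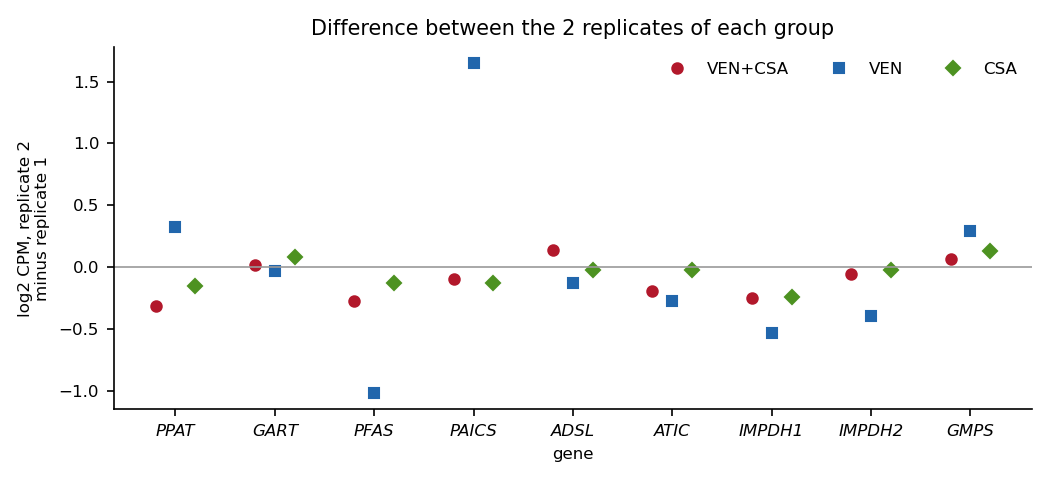
Log2 CPM of replicate 2 minus that of replicate 1 (vertical axis) for each of the 9 genes in VEN+CSA (circles), VEN (squares) and CSA (diamonds). The VEN squares reach 1.65 for PAICS and −1.01 for PFAS, while the VEN+CSA and CSA points stay between −0.31 and 0.14.

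Summed over the 9 genes, the level was 1569 and 1488 CPM in VEN+CSA, 1722 and 2112 CPM in VEN, and 1728 and 1687 CPM in CSA. Without PAICS the sums were 1324 and 1258 CPM in VEN+CSA, 1449 and 1258 CPM in VEN, and 1461 and 1442 CPM in CSA. The VEN+CSA sums over all 9 were below the other 4, and without PAICS they overlapped VEN. Profiles over the 6 libraries were compared with the mean profile of the 9 for 9787 genes outside the lists. The nearest 5 were MCM6, UVRAG, IRF8, MSMO1 and PCID2, at root mean square differences of 0.02 to 0.03 on the log2 scale. Each was lowest in the 2 VEN+CSA libraries, MCM6 at 410 and 371 CPM there and 423 to 455 CPM elsewhere. These 5 genes were picked for likeness to the mean profile, so this order follows from the choice. In VEN replicate 2, PAICS and PFAS pulled the mean profile in opposite directions. They lay 1.47 and −0.73 from their own means on the log2 scale. The 9 genes themselves lay further from their own mean profile, from 0.07 (GART) to 0.63 (PAICS). They were chosen by symbol and the 5 as the nearest of 9787, so this difference also follows from the choice.

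Around the pathway, edgeR called no gene of the other lists in either direction in any of the 3 comparisons. PRPP synthetases and their associated proteins, which supply the substrate of PPAT, had a median log2 fold change of 0.24 in VEN+CSA against VEN (4 tested) and −0.08 against CSA. PRPS2 was the highest of them in both, at 52.4 and 49.5 CPM in VEN+CSA, 36.9 and 28.7 CPM in VEN, and 32.4 and 30.8 CPM in CSA. Its groups did not overlap between VEN+CSA and either agent, and the log2 fold changes were 0.63 (SE 0.19, edgeR adjusted p = 0.356) and 0.69 (SE 0.19, adjusted p = 1.00). PRPS1, the other synthetase, was lowest in both, at 0.01 (SE 0.26) and −0.23 (SE 0.26). ADSS1 and ADSS2, the adenylosuccinate synthetases of the AMP branch, were at −0.31 (SE 0.22) and −0.19 (SE 0.18) against VEN and at −0.40 (SE 0.22) and 0.04 (SE 0.18) against CSA.

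Salvage enzymes, which rebuild nucleotides from free bases and nucleosides, had medians of −0.15 against VEN and 0.08 against CSA (7 tested). Their extremes against VEN were DCK, deoxycytidine kinase, at −0.46 (SE 0.31) and DGUOK, deoxyguanosine kinase, at 0.30 (SE 0.15). Against CSA they were PNP, purine nucleoside phosphorylase, at −0.37 (SE 0.18) and MTAP, which cleaves methylthioadenosine, at 0.29 (SE 0.25).

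Among 10 nucleotide kinases the medians were 0.06 against VEN and −0.15 against CSA. AK4, a mitochondrial adenylate kinase, was the lowest in both, at 7.71 and 6.65 CPM in VEN+CSA, 21.5 and 24.7 CPM in VEN, and 14.0 and 13.0 CPM in CSA. Both VEN+CSA libraries were below all others, with log2 fold changes of −1.69 (SE 0.20, edgeR adjusted p = 0.108) against VEN and −0.91 (SE 0.20, adjusted p = 0.826) against CSA. The highest were NME3, a nucleoside diphosphate kinase, at 0.26 (SE 0.43) against VEN, and AK1, an adenylate kinase that reached at most 1.35 CPM, at 0.64 (SE 0.36) against CSA. Of 14 genes of purine breakdown and interconversion 10 were tested, with medians of 0.28 against VEN and −0.09 against CSA. NT5C, a nucleotidase, was at 0.62 (SE 0.30) and AMPD3, an AMP deaminase, at −0.17 (SE 0.34) against VEN. GMPR2 and GMPR, the GMP reductases that return GMP to IMP, were at 0.31 (SE 0.21) and −0.50 (SE 0.62) against CSA, and GMPR reached at most 0.463 CPM. XDH, AMPD1 and GDA had no count in any of the 6 libraries.

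Pyrimidine synthesis genes, the parallel pathway, had medians of −0.04 against VEN and −0.02 against CSA (8 tested). CTPS2, a CTP synthase, was at −0.42 (SE 0.24) and DHODH, dihydroorotate dehydrogenase, at 0.58 (SE 0.25) against VEN. CAD, which starts the pathway, was at −0.23 (SE 0.28) and CMPK1, a UMP and CMP kinase, at 0.33 (SE 0.31) against CSA. The folate and serine enzymes that supply the formyl units of GART and ATIC were more widely spread, with 17 of 18 tested and medians of 0.11 against VEN and −0.03 against CSA. They ranged against VEN from TYMS, thymidylate synthase, at −0.83 (SE 0.15, edgeR adjusted p = 0.188), to PSAT1 of serine synthesis at 1.69 (SE 0.15, adjusted p = 0.0703). Against CSA they ranged from TYMS at −0.58 (SE 0.15) to ALDH1L2, a mitochondrial folate enzyme, at 0.79 (SE 0.24).

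**Figure D4:**
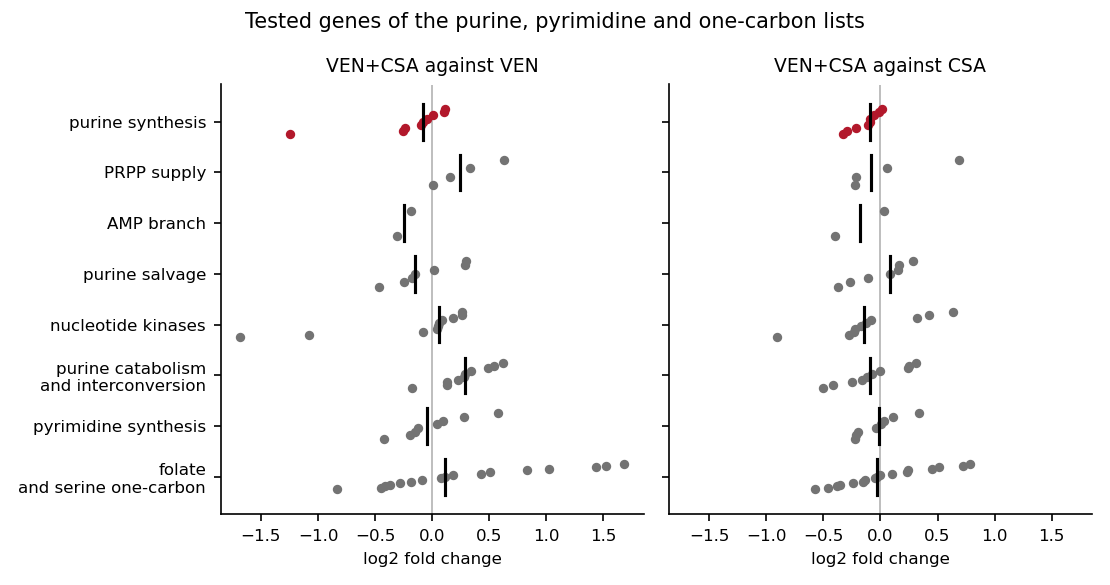
Log2 fold changes (horizontal axis) of each tested gene of 8 lists in VEN+CSA against VEN and in VEN+CSA against CSA; points are genes, and vertical bars are list medians. Apart from PAICS the purine synthesis genes (upper row) keep between −0.33 and 0.11, and the folate and serine row reaches 1.69.

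Of the transcription factors listed, ATF4, which drives the amino acid stress response, was at 563 and 568 CPM in VEN+CSA, 353 and 271 CPM in VEN, and 480 and 483 CPM in CSA. Both VEN+CSA values were the highest, with log2 fold changes of 0.86 (SE 0.18, edgeR adjusted p = 0.228) against VEN and 0.23 (SE 0.17) against CSA. MYC, a known activator of purine synthesis genes, was at 45.5 and 58.5 CPM in VEN+CSA, 47.8 and 68.4 CPM in VEN, and 40.7 and 42.5 CPM in CSA, and its log2 fold changes were −0.16 (SE 0.24) and 0.32 (SE 0.24). MAX, its partner, was at −0.35 (SE 0.42) and −0.13 (SE 0.42). Among the marker lists the extremes in the same order were MPO at −0.65 and −0.34 and HOXA9 at 0.10 and 0.31 for the myeloid line and, for B cells, CD79A at −0.82 against CSA and CD79B at 0.54 and −0.13. TRAC, at most 0.397 CPM, was at −0.56 and −0.28, and KRT8, at most 1.14 CPM, at 1.28 and 1.17.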

How the data were processed

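Per the labels' protocols, RNA was taken with Trizol, and the KAPA RNA HyperPrep kit served for library preparation. STAR, RSEM and DESeq2 with build hg38 are named in the submitters' processing notes, without versions or roles. The table deposited by the authors holds raw whole counts for Ensembl genes. Another 2 columns that no label assigns to a sample were not used. Symbols matched 20148 of 20263 identifiers, and 20224 were found in GENCODE release 29 (GRCh38), which gave exon lengths. Promoters are from RefSeq (GRCh38.p14).

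EdgeR (version 4.0.16, under R 4.3.3) fitted all 6 libraries together after filterByExpr and TMM scaling, by robust quasi-likelihood (glmQLFit, then the two-sided glmQLFTest), which left 3 residual degrees of freedom. P-values were adjusted by Benjamini-Hochberg over 12690 genes, with a threshold of 0.05. SE is the log2 fold change over the root of the F statistic, and 95% intervals use the fit's moderated degrees of freedom. Between 64.8% and 66.7% of counts from 1 to 20 were even, against 49% to 51% of counts of 100 or more, so low counts may not be independent reads. Replicates were distinct libraries (their chi-square statistics divided by degrees of freedom were 31.1 to 817). The test was also run on simulated counts with planted changes, and the share of these that it called is not given here. DESeq2 1.42.0, limma-voom (limma 3.58.1) and other settings were alternatives.

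The members, lists and tests were chosen with earlier results of these data known. Genes were named by a rule: the 9 members, the highest and lowest gene of each other list in both VEN+CSA comparisons, any called list gene, MYC and ATF4, and the 5 genes with the nearest profile among those with mean CPM of at least 5. A gene that this rule names is not reported here.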

Additional observations from a re-analysis of the deposited data

How the results depend on the processing

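None of the 9 purine synthesis genes was called under any alternative that used all libraries, or all 4 of the groups compared, and without VEN replicate 1 edgeR called 2 of them in VEN+CSA against VEN and 3 in VEN against CSA. The numbers over all genes were 311, 60 and 63 by DESeq2 for VEN+CSA against VEN, VEN+CSA against CSA and VEN against CSA, and 15, 4 and 2 with every gene that had a count. In VEN+CSA against CSA limma-voom called 1 gene, limma-voom with library quality weights (added after seeing the data) 49, and a fit of only the 4 libraries compared 24. Leaving out a library gave 0 to 3426, 0 to 24 and 0 to 4385 genes, the highest without VEN replicate 1, with the lone library left in a group taken to have the spread of the rest. The median of the 9 in these fits lay between −0.16 and −0.029 in VEN+CSA against VEN. It lay between −0.18 and −0.060 in VEN+CSA against CSA, and between −0.061 and 0.011 in VEN against CSA. Ranges that crossed 0 were, in VEN+CSA against VEN, −0.30 to 0.71 for PFAS, −0.021 to 0.25 for ATIC, −0.23 to 0.30 for IMPDH1 and −0.26 to 0.13 for IMPDH2; in VEN+CSA against CSA, −0.18 to 0.13 for PPAT, −0.19 to 0.0043 for ATIC and −0.053 to 0.080 for GMPS; and in VEN against CSA, −0.053 to 0.032 for GART, −1.001 to 0.0073 for PFAS, −0.061 to 0.063 for ADSL and −0.51 to 0.011 for IMPDH1.

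With library size as the only scaling the median of all genes was 0.26, −0.04 and −0.31, and the median of the 9 was 0.16 in VEN+CSA against VEN and −0.32 in VEN against CSA, which are −0.11 and −0.00 relative to all genes. Under it the sign turned in VEN+CSA against VEN for PPAT (0.064), GART (0.22), ADSL (0.16), IMPDH2 (0.15) and GMPS (0.072), in VEN+CSA against CSA for GMPS (−0.030), and in VEN against CSA for PPAT (−0.11), ADSL (−0.29) and GMPS (−0.10). ADSL in VEN against CSA was at −0.0018 with every gene that had a count. The cause was not tested.

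With the replicate number as a block edgeR called 0 genes in each comparison, and the medians of the 9 were −0.07, −0.09 and −0.01. Same-numbered libraries deviated together with correlations of 0.13 to 0.20 between groups, but the labels tie them by number only.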
